A study of Mus musculus with 24 samples.

Results

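Foxo6, Foxo1, Foxo3 and Foxo4 are the 4 genes of the forkhead O (FoxO) family of transcription factors, found by their gene symbols among the 45777 genes of the deposited table. All 4 passed the filter on low counts that left 18380 genes to test. The RNA-seq libraries, 6 in each of 4 groups, were made from prefrontal cortex of adult wild-type male mice. MS_EC12 mice had maternal separation (pups kept apart from the dam, an early-life stress) and were later given EC-12, a preparation of the gut bacterium Enterococcus faecalis that was killed with heat, for 5 weeks. Control_EC12 mice were given EC-12 without maternal separation, MS mice had maternal separation and no supplement, and Control mice had neither. The labels give no exact ages. The labels do not say whether each library is a separate animal, so the tests measure the spread between libraries, part of which may be technical.

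The family was selected on the counts of the MS and Control libraries, because Foxo6 was lower in MS than in Control. Values of that comparison are therefore given as a description with no test, for all 4 genes. Two-sided tests were kept for comparisons that did not choose the family. These are MS_EC12 against Control_EC12, and the EC-12 groups against the groups without EC-12, averaged over rearing. The group means of the first use none of the libraries that chose the family, but its spread was estimated over all 24 libraries. The second does take in the MS and Control libraries. They enter it through their average, while the choice was made on their difference. Its test of Foxo6 is therefore not free of the libraries that chose the gene. Foxo1, Foxo3 and Foxo4 were also tested for EC-12 within each rearing and for the interaction, where Foxo6 is described only.

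FoxO proteins bind DNA through a forkhead domain and switch on genes of stress resistance, cell cycle arrest, cell death, autophagy and metabolism. Insulin and growth factors act through PI3-kinase and Akt, which phosphorylates FoxO proteins, so that 14-3-3 proteins hold them outside the nucleus. Stress kinases such as JNK and MST1 act the other way. Foxo1, Foxo3 and Foxo4 are found in many tissues. Foxo6 is known mainly from the brain, where it has been linked to memory and to synapse genes, and its protein shuttles out of the nucleus less than the others do.

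The 4 genes lie on separate chromosomes (GRCm38, coordinates from RefSeq). Foxo6 (Gene ID 329934) spans 120267078 to 120287261 on the minus strand of chromosome 4. Foxo1 (Gene ID 56458) spans 52268337 to 52350109 on the plus strand of chromosome 3, Foxo3 (Gene ID 56484) spans 42181845 to 42276695 on the minus strand of chromosome 10, and Foxo4 (Gene ID 54601) spans 101254261 to 101260873 on the plus strand of chromosome X. The stretch that encodes the DNA-recognition helix of the forkhead domain shows how alike the 4 are where they contact DNA and how they still differ base by base. It is printed from GENCODE vM21 transcripts, 60 coding bases each, with capitals at the bases that differ from Foxo6. The windows start at coding base 391 in Foxo6, 598 in Foxo1, 595 in Foxo3 and 430 in Foxo4.
Foxo6: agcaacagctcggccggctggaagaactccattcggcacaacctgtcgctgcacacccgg
Foxo1: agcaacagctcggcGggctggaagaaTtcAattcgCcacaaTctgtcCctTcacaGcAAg
Foxo3: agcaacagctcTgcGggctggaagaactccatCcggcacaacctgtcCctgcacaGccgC
Foxo4: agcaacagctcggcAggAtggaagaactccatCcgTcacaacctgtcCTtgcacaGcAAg

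In that window Foxo3 differed from Foxo6 at 6 bases, Foxo4 at 9 and Foxo1 at 10. Over the whole transcripts the longest identical run was 20 to 21 bases between Foxo6 and any of the others and 38 bases between Foxo1 and Foxo3, and no run of 50 bases was shared by any of the 6 pairs. Taken as the median over the annotated transcripts of a gene, GC content was highest in Foxo6, 69.1%, which placed it at percentile 99.9 of the 15142 tested genes with a GC value. Foxo3 had 60.9% (percentile 96.7), Foxo4 had 57.7% (percentile 86.9) and Foxo1 had 48.5% (percentile 36.8), against a median of 50.9%. The median over transcripts can differ from the longest coding transcript, the one used for the window. In that transcript GC content was 53.2% in Foxo3, 55.2% in Foxo4, 48.5% in Foxo1 and 69.1% in Foxo6.

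The libraries also differed in how levels depended on GC content, which stands beside each Foxo6 value for that reason. In 7 of the 24 libraries the slope of log2 CPM on gene GC content was above 0, that is, GC-rich genes had the higher levels; in the other 17 it was below 0. The 7 were 4 MS_EC12, 2 Control_EC12, 1 MS and 0 Control libraries. The main values are therefore also given for the 17 libraries with slopes below 0, which hold 2 MS_EC12, 4 Control_EC12, 5 MS and 6 Control libraries. A further fit had the slope as a covariate in all 24 libraries. Total counts were 26250197 to 39252382 per library, and Foxo6, the lowest of the 4 genes, still had 213 to 534 counts. Of the 6 markers of cortical excitatory neurons, all were detected. Their summed level had medians of 5340 CPM in MS_EC12, 4530 in Control_EC12, 4480 in MS and 4630 in Control. In tissue RNA, fewer cells of a type and less RNA per cell cannot be told apart.

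Foxo3 was the most abundant member and Foxo6 the least. Compared per length, in deposited TPM over all 24 libraries, Foxo3 averaged 31.4 ± 3.49, Foxo4 16.4 ± 2.33, Foxo1 15.6 ± 2.02 and Foxo6 11.9 ± 2.75 (SD, n = 24). Foxo3 was the highest of the 4 in 24 of 24 libraries. Foxo4 and Foxo1 lay within each other's spread, with Foxo4 above Foxo1 in 17 of 24. Foxo6 exceeded Foxo1 in 3 libraries and Foxo4 in 3. The exceptions were mostly Control libraries: Foxo6 was above Foxo4 in 3 of 6 of them and above Foxo1 in 2 of 6, and above Foxo1 in 1 Control_EC12 library. In the MS and MS_EC12 libraries Foxo6 was the lowest of the 4 in every one. As a share of the summed TPM of the 4 genes, Foxo6 made up 15.4 ± 1.59% in MS_EC12, 16.6 ± 3.31% in Control_EC12, 12.3 ± 1.30% in MS and 18.6 ± 1.44% in Control (SD, n = 6 each).

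**Figure D1:**
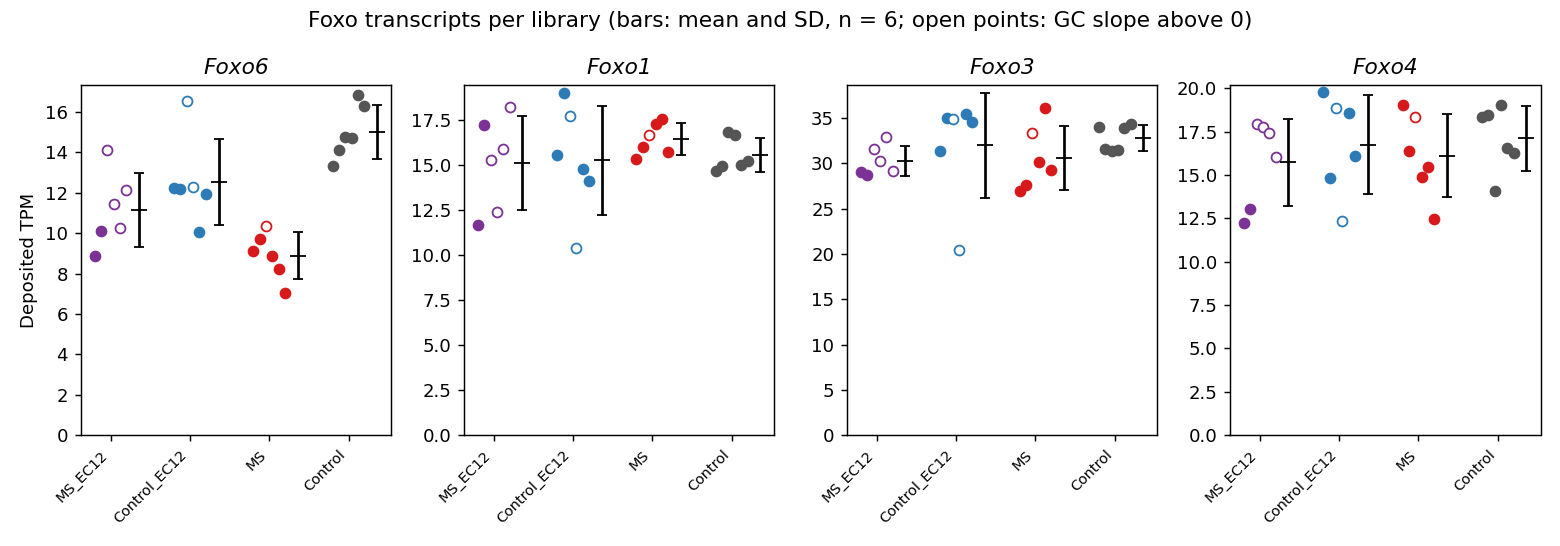
Deposited TPM of Foxo6, Foxo1, Foxo3 and Foxo4 in each library, by group, with the mean and SD of 6 libraries beside the points; open points are the 7 libraries whose GC slope was above 0. Foxo6, chosen because it was lower in MS than in Control, lies at 7.05 to 10.3 TPM in MS. That is below every Control library (13.3 to 16.8 TPM), which can follow from choosing the gene on these values. How many of all genes part in the same way was not counted. The groups overlap for the other 3 genes, which were not chosen on their own values.

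Foxo6 was the member whose MS and Control groups stood apart, and it was chosen on those groups. Its 6 MS libraries, in the order of their replicate numbers, had 9.12, 9.71, 10.3, 8.84, 8.22 and 7.05 TPM. The 6 Control libraries had 13.3, 14.1, 14.8, 14.7, 16.8 and 16.3 TPM. The MS and Control values did not overlap, which can follow from choosing the gene on them. How many of all genes do the same was not counted. The highest MS library was the one with a GC slope above 0. The log2 fold change of MS against Control was −0.75 ± 0.128 (SE) in all 24 libraries, −0.80 ± 0.0885 in the 17 with slopes below 0 and −0.77 ± 0.0790 with the slope as covariate. This is the comparison that chose the gene, in which 0.0326% of all genes passed an adjusted p of 0.05, and nothing is tested on it.

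The slope of the library also parted these groups within the 17. It was −0.137 to −0.0826 log2 CPM per 10 percentage points of GC in the 5 MS libraries and −0.0757 to −0.0139 in the 6 Control libraries, so that every MS library of that set lay below every Control library. Its part in the Foxo6 values was not tested beyond the covariate fit above.

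The EC-12 groups averaged between these levels. Foxo6 was chosen for a low MS and a high Control, and such a place between them can follow from that choice. In MS_EC12 the 6 libraries had 8.87, 10.1, 14.1, 11.4, 10.2 and 12.1 TPM of Foxo6. In Control_EC12 they had 12.2, 12.2, 16.5, 12.3, 10.1 and 11.9 TPM. These groups overlapped with each other and with MS, and in TPM each overlapped with Control through a single library, its replicate 3. In CPM 2 libraries of each lay above the lowest Control library, replicates 3 and 6 of MS_EC12 and 3 and 4 of Control_EC12. The high libraries of each group were mostly those with a GC slope above 0. In MS_EC12 the 4 such libraries had 11.0 to 15.3 CPM and the other 2 had 8.84 to 10.6 CPM. In Control_EC12 the 2 such libraries had 14.5 to 16.9 CPM and the other 4 had 9.97 to 12.4 CPM.

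**Figure D2:**
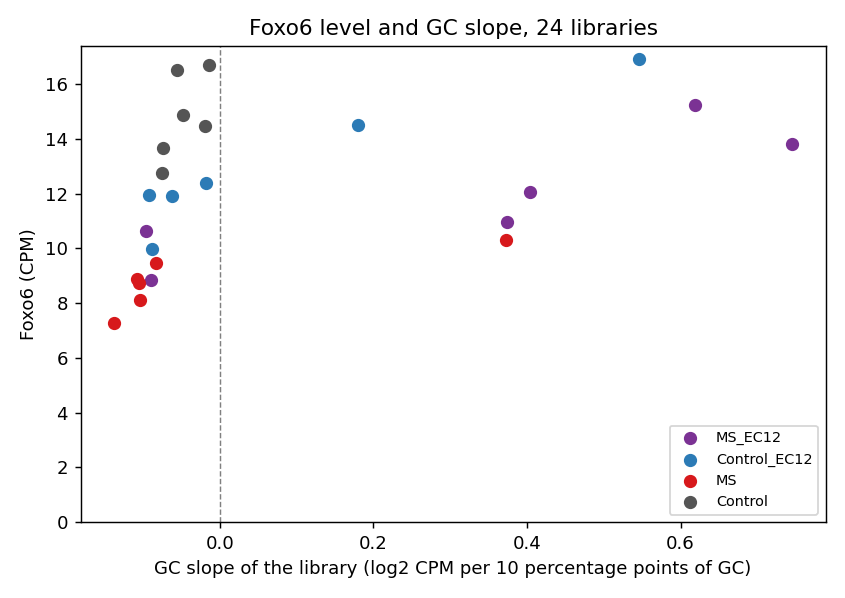
Foxo6 level in CPM (y axis) against the slope of log2 CPM on gene GC content in the same library (x axis, log2 CPM per 10 percentage points of GC), 24 libraries coloured by group; the dashed line marks a slope of 0. All 6 Control libraries lie left of the line at 12.8 to 16.7 CPM, and the 4 MS_EC12 libraries right of it lie at 11.0 to 15.3 CPM, above the 2 left of it.

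The comparison of MS_EC12 with Control_EC12 asks whether maternal separation was accompanied by a difference among supplemented mice, in libraries that had no part in choosing the family. No member passed. Foxo6 averaged 11.1 ± 1.84 TPM in MS_EC12 and 12.5 ± 2.14 TPM in Control_EC12 (SD, n = 6 each). Its log2 fold change was −0.12 ± 0.127 (SE; edgeR quasi-likelihood adjusted p = 0.589), with a 95% interval of −0.38 to 0.15. With single libraries left out it ran between −0.20 (without MS_EC12 replicate 3) and −0.03 (without Control_EC12 replicate 3), and it was −0.05 without MS_EC12 replicate 1 and −0.18 without Control_EC12 replicate 5. The direction was the same in the 17 libraries (−0.24 ± 0.127, adjusted p = 0.489) and with the slope as covariate (−0.31 ± 0.0840, adjusted p = 0.131). With the covariate the value was larger and its SE smaller. The interval above is of the fit without the slope and does not stand for that one.

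Foxo1, a regulator of metabolism and of cell differentiation in many tissues, had 11.7 to 18.2 TPM in MS_EC12 (median 15.6) and 10.4 to 19.0 TPM in Control_EC12 (median 15.2). Those ranges lie almost on top of each other. Its log2 fold change was 0.08 ± 0.111 (adjusted p = 0.689, interval −0.15 to 0.31).

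Foxo3, which is tied to stress resistance and the upkeep of neural stem cells, had 28.7 to 32.9 TPM in MS_EC12 (median 29.7) and 20.5 to 35.4 TPM in Control_EC12 (median 34.7). One Control_EC12 library, replicate 4, lay far below the other 5, and the MS_EC12 libraries fell between it and them except for 2 that were above the lowest of the 5. The log2 fold change from the counts was 0.0026 ± 0.0821 (adjusted p = 0.988, interval −0.17 to 0.17), and without that library it was −0.06.

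Foxo4, the X-linked member, had 12.2 to 17.96 TPM in MS_EC12 (median 16.7) and 12.4 to 19.8 TPM in Control_EC12 (median 17.3). Within MS_EC12 the values split with the GC slope, at 16.0 to 17.96 TPM in the 4 libraries above 0 and 12.2 to 13.1 TPM in the 2 below. The log2 fold change was 0.0011 ± 0.118 (adjusted p = 0.996, interval −0.25 to 0.25) in all libraries, and −0.37 ± 0.138 (adjusted p = 0.297) in the 17. Over all genes, 0.261% passed in MS_EC12 against Control_EC12, and of the 4 members 0 did, 0 also at an unadjusted p under 0.05, which 15.9% of all genes reached. These counts are of the fit of all 24 libraries without the slope. Unadjusted p were not counted in the 17 libraries or with the covariate, where Foxo4 and Foxo6 lay further from 0.

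The EC-12 groups together against the groups without EC-12 gave larger numbers of changed genes, 7.88% of all genes tested, but again 0 of the 4 members, 0 of them at an unadjusted p under 0.05, which 33.3% of all genes reached. Foxo6 had a log2 fold change of 0.12 ± 0.0897 (adjusted p = 0.334, interval −0.07 to 0.31). Its direction turned in the 17 libraries (−0.08 ± 0.0770, adjusted p = 0.637) and with the slope as covariate (−0.08 ± 0.0637, adjusted p = 0.593). Foxo1 was at −0.0019 ± 0.0788 (adjusted p = 0.989, interval −0.17 to 0.16; −0.05 in the 17 libraries) and Foxo3 at 0.05 ± 0.0581 (adjusted p = 0.595, interval −0.08 to 0.17; 0.03 in the 17 libraries). For Foxo4 the value was 0.04 ± 0.0837 (adjusted p = 0.726, interval −0.13 to 0.22), which also turned in the 17 libraries (−0.12, adjusted p = 0.497). The share of all genes called fell to 0.518% in those 17 libraries.

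Within each rearing the average hides opposite signs for Foxo6, given here as a description. It was 0.44 ± 0.128 (SE) on the log2 scale in MS_EC12 against MS and −0.20 ± 0.126 in Control_EC12 against Control. The first shrank to 0.19 ± 0.122 in the 17 libraries and 0.15 ± 0.0913 with the slope as covariate, while the second grew to −0.36 ± 0.0929 and −0.31 ± 0.0795. The difference between them, the interaction of rearing and EC-12, was 0.63 ± 0.180, 0.55 ± 0.153 in the 17 libraries and 0.46 ± 0.114 with the slope as covariate. MS and Control libraries enter these values, so they share the libraries that chose Foxo6. The opposite signs and an interaction above 0 can follow from that choice, and a part of EC-12 in them was not tested.

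**Figure D3:**
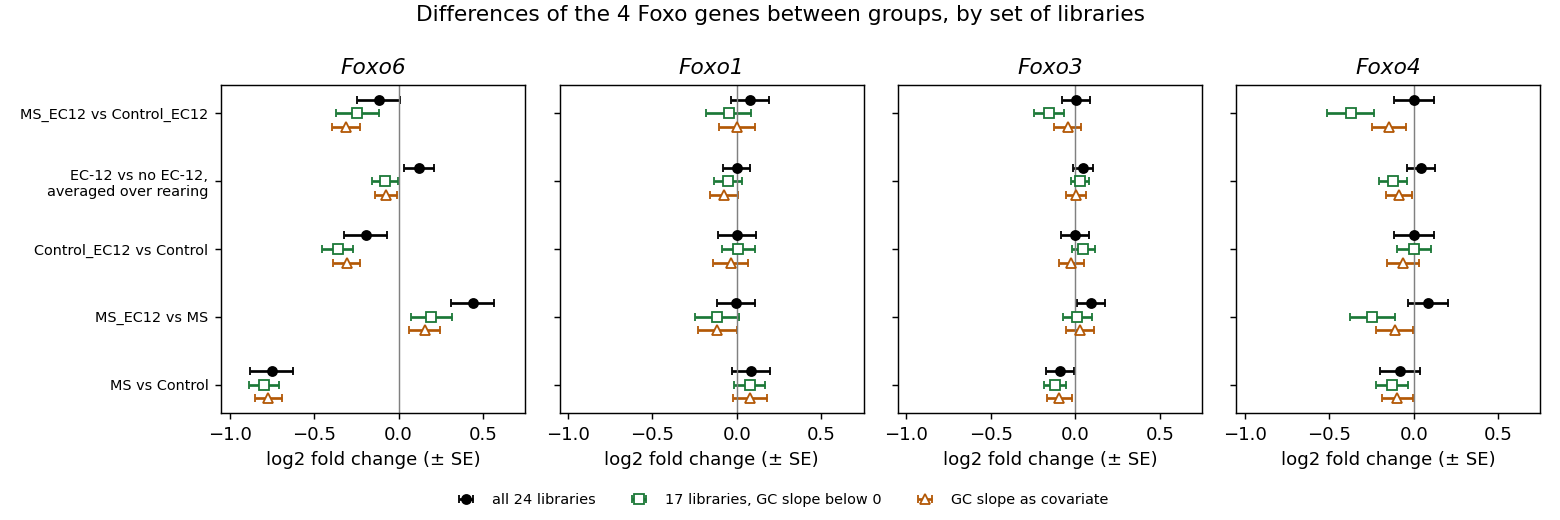
Log2 fold change with its SE for each Foxo gene (panels) in 5 comparisons (rows); filled circles use all 24 libraries, squares the 17 with a GC slope below 0 and triangles the slope as covariate. The MS against Control values of Foxo6 lie between −0.80 and −0.75 under all 3, and its EC-12 values averaged over rearing lie on either side of 0.

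The other 3 genes did not pass with EC-12 in either rearing. In MS_EC12 against MS, Foxo1 had a log2 fold change of −0.0043 (adjusted p = 0.983), Foxo3 of 0.09 (adjusted p = 0.434) and Foxo4 of 0.09 (adjusted p = 0.627), where 0.163% of all genes passed. Foxo4 turned to −0.25 ± 0.133 (adjusted p = 0.601) in the 17 libraries. In Control_EC12 against Control the 3 values lay between −0.0011 and 0.0032 (adjusted p = 0.993 to 0.998), where 0.0218% of all genes passed. The 95% intervals were −0.23 to 0.23 for Foxo1, −0.17 to 0.17 for Foxo3 and −0.24 to 0.25 for Foxo4. They hold the differences that these values allow at this spread, before adjustment over all genes, and are not limits of detection. The interactions were −0.0048 for Foxo1, 0.09 for Foxo3 and 0.08 for Foxo4 (adjusted p = 0.994, 0.832 and 0.885), where 0.0109% of all genes passed; that of Foxo4 was −0.24 in the 17 libraries (adjusted p = 0.888). In none of these 9 tests was the unadjusted p under 0.05.

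In MS against Control the same 3 genes overlapped, as a description. Foxo1 averaged 16.4 ± 0.884 TPM in MS and 15.5 ± 0.945 TPM in Control (log2 fold change from counts 0.08 ± 0.112). Foxo3 averaged 30.6 ± 3.53 TPM in MS and 32.8 ± 1.45 TPM in Control (−0.09 ± 0.0822). Foxo4 averaged 16.1 ± 2.40 TPM in MS and 17.1 ± 1.86 TPM in Control (−0.08 ± 0.118; SD of TPM, n = 6 each). In the 17 libraries the log2 fold changes were 0.08 for Foxo1, −0.12 for Foxo3 and −0.13 for Foxo4.

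The annotated neighbours of Foxo6 had few reads or no difference that passed. LOC115489901, a long non-coding RNA annotated inside its span, had 0 counts in all 24 libraries, and Foxo6os, a long non-coding RNA that starts 3872 bases away, had 0 to 9. The nearest protein-coding gene on the higher side, Scmh1, had 1145 to 1726 counts and a log2 fold change of −0.01 in MS against Control, −0.06 in MS_EC12 against Control_EC12 (adjusted p = 0.559) and 0.06 with EC-12 averaged over rearing (adjusted p = 0.31). The nearest on the lower side, Edn2, had 0 to 8 counts. Gm38485, a long non-coding RNA that overlaps Foxo3, had 0 to 19 counts against 2276 to 3707 for Foxo3 itself. Of the neighbours of Foxo1, Cog6, a part of the Golgi transport machinery, lies 632014 bases away. It was lower with EC-12 averaged over rearing (−0.15, adjusted p = 0.0362), where 7.88% of all genes passed. Maml3, a Notch coactivator 163018 bases away, did not pass (−0.05, adjusted p = 0.769). Those of Foxo3 and Foxo4 that could be tested (Afg1l, Armc2, Gm38485 and Snx12) did not pass in MS_EC12 against Control_EC12 or with EC-12 averaged over rearing.

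Genes whose library-to-library variation resembled that of each member were found by Pearson's r of log2 CPM over 24 libraries after the group means were removed; the libraries share their depth and GC slope, and r is a description. For Foxo6 these were Wdtc1 (r = 0.92), the calcium-binding protein gene Cabp7 (0.919), Vstm2l (0.904), Dtx1, a regulator of Notch (0.896), and the pacemaker channel gene Hcn2 (0.895). Each had a GC content above the median, 54.9% to 69.2%, and in the 17 libraries their r was 0.675 to 0.876. In MS against Control they were at −0.12 to 0.02. They were picked with the group means removed, and Foxo6 was picked on that very difference. Their values are therefore not set against that of Foxo6. For Foxo1 the closest was Bcl11b, a transcription factor of deep-layer neurons (r = 0.913), followed by Actn1, Apln, Scube3 and Pcdhgb6 (0.826 to 0.844). Foxo3 varied most like Vps33a (0.912), Ap2b1, Cyfip2, Abr and Fry (0.898 to 0.906), and Foxo4 like Zbtb7b (0.9), Plekhg3, Arap1, Col11a2 and Slc25a18 (0.856 to 0.87). Among themselves the members varied together less, from r = 0.1 for Foxo6 and Foxo3 to 0.491 for Foxo1 and Foxo3.

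The genes that act on FoxO proteins were read from a list of 59, all of them tested. In MS_EC12 against Control_EC12 none passed in edgeR, where 0.261% of all genes did, and DESeq2 called 0. At an unadjusted p under 0.05 there were 13 of 59, beside 15.9% of all genes. Their median log2 fold change was −0.07, beside −0.02 over all genes. The 4 with the smallest p were Inpp5d, a phosphatase of PI3-kinase lipids (0.21, adjusted p = 0.243), Skp2, a ubiquitin ligase subunit (−0.57, adjusted p = 0.247), the kinase Akt2 (0.27, adjusted p = 0.247) and Pik3r1, a regulatory subunit of PI3-kinase (−0.38, adjusted p = 0.247).

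With EC-12 averaged over rearing, 9 of the 59 passed, 2 higher and 7 lower, or 15.3%, where 4.59% of all genes were higher and 3.29% lower. Their median was −0.11, beside 0.02 over all genes, and 16 of the 59 were above 0. Stk4, which encodes the stress kinase MST1, had 35.5 to 41.2 CPM in MS_EC12 (median 37.1) and 28.0 to 39.4 CPM in Control_EC12 (median 36.3). The groups without EC-12 had 41.2 to 46.9 CPM in MS (median 43.4) and 41.9 to 47.6 CPM in Control (median 44.9). The highest EC-12 library and the lowest of the others met at 41.2 CPM, with a log2 fold change of −0.28 ± 0.0509 (adjusted p = 0.0123). Inpp5d averaged 16.3 ± 1.09 CPM in MS_EC12, 14.1 ± 1.00 in Control_EC12, 13.6 ± 0.900 in MS and 12.8 ± 1.12 in Control (log2 fold change 0.20 ± 0.0518, adjusted p = 0.0332).

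Prkaa2, a catalytic subunit of the energy-sensing kinase AMPK, averaged 37.9 ± 9.34 CPM in MS_EC12, 43.7 ± 9.12 in Control_EC12, 51.7 ± 6.82 in MS and 51.6 ± 2.33 in Control (−0.34, adjusted p = 0.0411). Akt2, Usp7, Phlpp2 and Mapk10, chosen after their values were seen, also passed. The values were 0.22 for the kinase Akt2 (adjusted p = 0.0498), −0.21 for the deubiquitinase gene Usp7 (adjusted p = 0.0435), −0.23 for the Akt phosphatase gene Phlpp2 (adjusted p = 0.0443) and −0.22 for the JNK kinase gene Mapk10 (adjusted p = 0.0462). When each library was left out in turn, Stk4 passed in 24 of 24 fits, Inpp5d in 11 and Prkaa2, Akt2, Usp7, Phlpp2 and Mapk10 in 6 to 8. The count of 9 fell to 1 to 4 without any 1 of 17 libraries and rose to 20 without MS replicate 3, 27 without MS_EC12 replicate 1 and 25 without MS_EC12 replicate 2.

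Markers of cell types moved in the same comparison. Of the 6 astrocyte markers 3 were higher, among them Gfap (0.36, adjusted p = 0.0207) and S100b (0.20, adjusted p = 0.0335). C1qa of microglia (0.31, adjusted p = 0.0396) and Vtn of mural cells (0.45, adjusted p = 0.0133) were higher too. Neuronal markers that passed were lower: Neurod6 of excitatory neurons (−0.27, adjusted p = 0.0347), Rorb of upper layers (−0.40, adjusted p = 0.0408), Foxp2 and Tle4 of deep layers (−0.47, adjusted p = 0.0411, and −0.20, adjusted p = 0.0479) and Gad2 of interneurons (−0.32, adjusted p = 0.0464). The lists were mixed. Above 0 were 3 of 6 excitatory, 3 of 6 upper layer, 1 of 6 deep layer and 4 of 6 interneuron markers. So were 4 of 6 astrocyte, 5 of 6 microglial and 4 of 5 mural markers. Over all genes 4.59% were higher and 3.29% lower in this comparison. The summed deep layer markers were 333 to 368 CPM in MS_EC12, 305 to 393 in Control_EC12, 375 to 409 in MS and 375 to 409 in Control. The summed astrocyte markers were 970 to 1270 CPM in MS_EC12, 976 to 1440 in Control_EC12, 1030 to 1190 in MS and 1070 to 1200 in Control. Of these genes S100b passed in the 17 libraries (0.28, adjusted p = 0.0114), where 0.518% of all genes did. The part of these markers in the counts of regulators and targets was not tested.

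In the 17 libraries 0 of the 59 were higher and 2 were lower with EC-12 averaged over rearing, where 0.518% of all genes passed. These were Stk4 (−0.18, adjusted p = 0.0476) and Irs2, an insulin receptor substrate (−0.30, adjusted p = 0.0482). The median was then −0.03. In MS_EC12 against MS, Control_EC12 against Control and the interaction, none of the 59 passed in edgeR, with 30, 7 and 1 at an unadjusted p under 0.05 and 11, 1 and 0 called by DESeq2. Of all genes, 31.8%, 8.93% and 4.8% had such an unadjusted p. The number of all genes called in MS_EC12 against MS also ranged from 0 to 3809 over the settings. The DESeq2 counts are therefore not read as a trait of the list. In the 17 libraries, Stk4 (−0.26, adjusted p = 0.0222) and Irs2 (−0.41, adjusted p = 0.0262) were lower in Control_EC12 than in Control, where 0.456% of all genes passed, and none of the 59 passed in the other 2. In MS against Control, as a description, the median was −0.01 and the values ran from −0.33 for Irs2 to 1.14 for Irs4.

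Target genes of FoxO proteins were read from a list of 60 symbols, of which 54 were tested. Sepp1 is an older symbol of Selenop, and Fasl, Trim63, Pck1, G6pc and Igfbp1 did not pass the filter. In MS_EC12 against Control_EC12 none passed in edgeR and 1 was called by DESeq2. At an unadjusted p under 0.05 there were 9 of 54, beside 15.9% of all genes. The median was −0.03, beside −0.02 over all genes. Tsc22d3, which encodes the glucocorticoid-induced leucine zipper protein and is the gene called by DESeq2, had 60.7 to 114.5 CPM in MS_EC12 and 52.7 to 65.4 CPM in Control_EC12 (0.52, adjusted p = 0.101). Fbxo32, the muscle atrophy ubiquitin ligase atrogin-1, had 12.9 to 24.8 CPM in MS_EC12 and 20.3 to 28.9 CPM in Control_EC12 (−0.48, adjusted p = 0.151). Bbc3, the cell death gene PUMA, was at −0.48 (adjusted p = 0.214) and Ccnd1, cyclin D1, at 0.22 (adjusted p = 0.228).

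**Figure D4:**
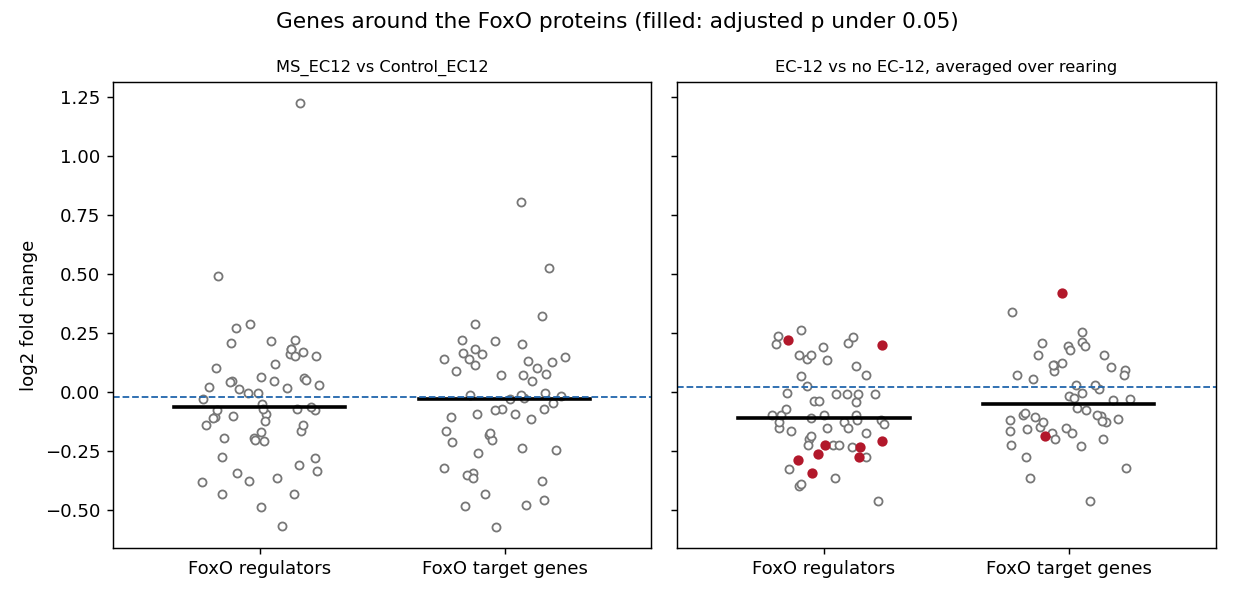
Log2 fold change of each tested gene that acts on FoxO proteins (59) and of each FoxO target gene (54), for MS_EC12 against Control_EC12 on the left and EC-12 averaged over rearing on the right; filled points passed an adjusted p of 0.05, black bars are list medians and the dashed line is the median of all genes. The left panel has no filled point, and the right panel has 9 among the regulators and 2 among the targets.

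With EC-12 averaged over rearing, 2 of the 54 targets passed, or 3.7%, beside 7.88% of all genes. Cdkn1a, the cell cycle inhibitor p21, was higher: 40.5 ± 8.09 CPM in MS_EC12, 32.4 ± 4.86 in Control_EC12, 25.7 ± 4.15 in MS and 28.5 ± 3.16 in Control (log2 fold change 0.42 ± 0.0923, adjusted p = 0.0202). It also passed in MS_EC12 against MS (0.65 ± 0.131, adjusted p = 0.036), the 1 target to do so there, where 0.163% of all genes passed. Its ranges were 27.3 to 48.3 CPM in MS_EC12 and 19.25 to 30.3 CPM in MS, and these overlapped. In the 17 libraries Cdkn1a did not pass in either comparison (0.34, adjusted p = 0.143, and 0.49, adjusted p = 0.351). When each library was left out in turn it passed in 24 of 24 fits with EC-12 averaged over rearing and in 10 of 24 for MS_EC12 against MS. Rbl2, a retinoblastoma relative that holds cells in quiescence, was lower: 41.5 ± 3.13 CPM in MS_EC12, 42.9 ± 6.08 in Control_EC12, 48.6 ± 3.15 in MS and 47.6 ± 1.93 in Control (−0.19 ± 0.056, adjusted p = 0.0442). Without 1 library it passed in 7 of 24 fits, and in the 17 libraries it did not pass (−0.07, adjusted p = 0.416).

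In Control_EC12 against Control no target passed in edgeR, with 8 of 54 at an unadjusted p under 0.05 (8.93% of all genes) and 1 called by DESeq2. That gene was Bcl6, a transcriptional repressor (−0.36, adjusted p = 0.12 in edgeR). In the 17 libraries 1 target, Irs2, was lower (−0.41, adjusted p = 0.0262), where 0.456% of all genes passed. In the interaction none passed, with 7 of 54 at an unadjusted p under 0.05 (4.8% of all genes) and 0 called by DESeq2. In MS against Control, as a description, the median of the targets was −0.05, and the values of Ccnd2, Gadd45a, Trib1 and Bcl6 were −0.40, −0.42, −0.36 and −0.24.

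The promoters of the targets were searched for the FoxO consensus TGTTTAC on either strand (GTAAACA on the other), in windows of 250 bases before to 50 after the start site (RefSeq, GRCm38.p6). The motif was in 5 of 42 targets with a window (11.9%), Bbc3, Bcl2l11, Selenop, Sesn1 and Txnip, in 2 of 48 regulators (4.17%), Akt1 and Mdm2, and in 1095 of 27025 genes in all (4.05%). It was in 3.21% of genes that passed the filter. None of the 5 targets passed in MS_EC12 against Control_EC12 or with EC-12 averaged over rearing. The windows of Foxo1 and Foxo3 did not hold these letters. The looser form TGTTTNC was in 28.6% of the targets and 22.8% of all genes. Bbc3 is printed as the named target that holds the consensus, chr7:16310011-16310310 on the plus strand, with the motif in capitals.
Bbc3: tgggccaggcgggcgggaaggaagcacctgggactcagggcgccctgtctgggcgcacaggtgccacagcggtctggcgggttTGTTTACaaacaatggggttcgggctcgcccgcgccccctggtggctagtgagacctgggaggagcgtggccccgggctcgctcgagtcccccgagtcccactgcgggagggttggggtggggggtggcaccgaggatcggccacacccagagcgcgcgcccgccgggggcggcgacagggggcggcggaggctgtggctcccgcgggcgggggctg

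Markers of tissue next to the prefrontal cortex were also read. The 6 olfactory bulb markers summed to 50.3 to 313 CPM in MS_EC12, 119 to 388 in Control_EC12, 21.6 to 164 in MS and 31.5 to 196 in Control. All 6 were above 0 with EC-12 averaged over rearing (median 0.90) and 0 of them passed. Slc6a13 of the meningeal markers (0.48, adjusted p = 0.0152) and Fibcd1 of the hippocampal markers (0.29, adjusted p = 0.0308) were higher, where 4.59% of all genes were. Above 0 were 4 of 5 meningeal markers (median 0.19) but only 2 of 5 tested hippocampal markers (median −0.09). In the 17 libraries no marker of either list passed. The choroid plexus markers reached 685 CPM in 1 MS_EC12 library and at most 70.1 CPM in the other groups. None of the 16 marker lists had members at 0 in every library. Of the 17 immediate early genes, 2 were lower in MS_EC12 than in Control_EC12, Nr4a3 (−0.94, adjusted p = 0.00162) and Fos (−0.71, adjusted p = 0.042), with a list median of −0.33, where 0.0598% of all genes were lower. In the 17 libraries, 2 of them MS_EC12 and 4 Control_EC12, the median was −0.62 and 0.162% of all genes passed. Of the list 3 passed, Nr4a3, Fosb (−1.21, adjusted p = 0.0148) and Jun (−0.80, adjusted p = 0.000689). Fos did not (−0.99, adjusted p = 0.0777). In all 24 libraries Fosb (−0.57, adjusted p = 0.173) and Jun did not pass. Jun then averaged 55.7 ± 12.7 CPM in MS_EC12 and 69.6 ± 5.15 CPM in Control_EC12 (SD, n = 6 each). The part of these genes in the Foxo values was not tested.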

How the data were processed

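Total RNA was prepared with ISOGEN II reagent, and mRNA libraries with a kit that keeps strand, per the labels. The tools named in the submitters' processing notes are HISAT2 2.1.0, StringTie 2.1.3b, FastQC 0.11.7, Trimmomatic 0.38 and DESeq2, with the build mm10. How reads were counted, and with which strand setting, is not stated in the labels or headers. The deposited table holds read counts per gene, unnormalized, beside TPM and FPKM values that the authors made, per the file headers. Counts were used for every test and TPM for levels between genes. FPKM was not used.

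Counts were filtered with filterByExpr (minimum count 10, minimum total 15) and tested in R 4.3.3 with edgeR 4.0.16 (quasi-likelihood F test). Scaling was TMM, and the 4 groups of 24 libraries shared 1 fit. P-values were adjusted by Benjamini-Hochberg over 18380 genes, with a threshold of 0.05. Intervals used 20 residual degrees of freedom. The code was tested on simulated data. Alternatives were DESeq2 1.42.0, limma 3.58.1 on log2(TPM + 1) and log2(TPM + 0.1), median-ratio scaling, no filter, only the groups compared, a replicate block, GC slope as covariate, the 17 libraries of slope below 0, and each library left out. GC content came from GENCODE vM21 transcripts and covered 82.4% of tested genes. RefSeq gene identifiers matched 99.79% of rows.

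Named genes were the members, their neighbours, their 5 most similar genes, and up to 4 per list and comparison by smallest p. The members and lists were chosen with earlier results of these data known. The values of 2 regulators are not reported here.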

Additional observations from a re-analysis of the deposited data

Results flagged for a closer look

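Foxo3 in Control_EC12 replicate 4 had 71.29 CPM, far below the other 5 libraries of its group, which had 90.7 to 101 CPM. In a group of 6, chance gives such a gap in about 1 group in 20. The check was run for each of 4 genes in each of 4 groups, and this was the only flag. In TPM the same library was also the lowest of its group for Foxo1 (10.4) and Foxo4 (12.4), and its GC slope was 0.18, above 0. Without it the log2 fold change of Foxo3 in MS_EC12 against Control_EC12 was −0.06.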

How the results depend on the processing

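No member passed in any of the 17 tested results or in any of 554 alternative fits of them; the lowest adjusted p was 0.131. Values near 0 changed sign, and the cause was not tested. In MS_EC12 against Control_EC12, limma on log2(TPM + 1) and log2(TPM + 0.1) gave −0.00748 and −0.00744 for Foxo1, −0.055 and −0.056 for Foxo3, and −0.082 and −0.086 for Foxo4. The 17 libraries gave −0.050, −0.157 and −0.373 for Foxo1, Foxo3 and Foxo4, and the GC covariate −0.044 for Foxo3 and −0.146 for Foxo4. With EC-12 averaged over rearing, the 17 libraries and the covariate gave −0.083 and −0.076 for Foxo6 and −0.123 and −0.088 for Foxo4, and limma at either pseudocount −0.032 and −0.033 for Foxo3 and −0.036 and −0.038 for Foxo4.

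In Control_EC12 against Control, Foxo1 was −0.00300 with DESeq2, −0.00296 with median-ratio scaling, −0.00182 with no filter, −0.046 and −0.050 with limma, −0.00274 with the replicate block and −0.038 with the covariate. Foxo3 was 0.000192 with only the 2 groups compared and 0.048 in the 17 libraries. Foxo4 was −0.000282 with DESeq2, −0.000123 with median-ratio scaling, −0.0388 and −0.0414 with limma, −0.00668 with the replicate block, −0.00124 in the 17 libraries and −0.063 with the covariate. In MS_EC12 against MS, limma gave −0.00795 and −0.00802 for Foxo3 and −0.033 and −0.035 for Foxo4, and Foxo4 was −0.245 in the 17 libraries and −0.113 with the covariate. The interaction was −0.037 for Foxo3 and −0.244 for Foxo4 in the 17 libraries, and −0.050 for Foxo4 with the covariate.

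With each library left out, values in MS_EC12 against Control_EC12 were −0.064 to 0.029 for Foxo3 and −0.050 to 0.078 for Foxo4, and Foxo1 with EC-12 averaged over rearing was −0.042 to 0.037. In Control_EC12 against Control they were −0.064 to 0.054 for Foxo1, −0.028 to 0.065 for Foxo3 and −0.045 to 0.040 for Foxo4. Foxo1 was −0.084 to 0.074 in MS_EC12 against MS and −0.085 to 0.073 in the interaction.

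The list counts moved with the settings, as did the counts over all genes given further on, and they are not read as a trait of the lists. With EC-12 averaged over rearing, the 9 regulators became 20 with DESeq2, 1 with no filter, 19 and 19 with limma, 29 with the replicate block, 2 in the 17 libraries and 1 with the covariate, and 1 to 27 with each library left out. The 2 targets became 6 with DESeq2, 4 with median-ratio scaling, 1 with no filter, 11 and 11 with limma, 13 with the replicate block, 1 in the 17 libraries and 0 with the covariate, and 1 to 12 with each library left out. In MS_EC12 against Control_EC12, where 0 passed, 1 target passed with DESeq2 and 1 with the replicate block; with each library left out 0 to 1 regulators and 0 to 2 targets passed. Over all genes, the 48 called there ranged over the settings from 2 to 232, the 1448 with EC-12 averaged over rearing from 81 to 4552, the 30 in MS_EC12 against MS from 0 to 3809, the 4 in Control_EC12 against Control from 2 to 130, the 2 of the interaction from 0 to 19, and the 6 in MS against Control from 3 to 83. With 1 library left out the first 3 ranged from 14 (without Control_EC12 replicate 6) to 186 (without Control_EC12 replicate 3), from 213 (without MS replicate 5) to 4600 (without MS_EC12 replicate 1), and from 0 to 5037 (without MS_EC12 replicate 1).

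The replicate numbers were not taken to pair the libraries, since the labels do not tie them to a litter, batch or day. Same-number pairs correlated at a median of 0.08 (−0.30 to 0.58, 36 pairs) and other pairs at −0.01 (−0.595 to 0.611, 180 pairs). Of 24 libraries, 9 correlated best with their own number, and how many would by chance was not computed. Replicate 3 had a GC slope of 0.37 in MS, 0.55 in Control_EC12 and 0.62 in MS_EC12, but −0.05 in Control. Whether libraries of the same number shared a litter, batch or day was not tested. The block gave 232, 4552, 33, 3809, 9 and 10 called genes, and the main fit 48, 1448, 4, 30, 2 and 6. These are, in order, MS_EC12 against Control_EC12, EC-12 averaged over rearing, Control_EC12 against Control, MS_EC12 against MS, the interaction and MS against Control.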
